A study of Drosophila melanogaster with 6 samples.

Results

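The Turandot genes encode a family of small secreted stress proteins of Drosophila, and 5 of them, TotA, TotB, TotC, TotM and TotX, were followed in an RNA sequencing comparison of salivary gland imaginal rings. They were chosen by symbol in the authors' deposited table of genes that differ between tumor and control, with results of that table already known. The table lists 6156 genes of 9384 tested. TotA and TotC have a row in it and TotB, TotM and TotX have none, by symbol or by FlyBase identifier. Because the table holds called genes alone, a member without a row was either tested and not called or not tested, and no value can be given for it.

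The samples were 3 controls of genotype Actts>GFP and 3 tumors of genotype Actts>GFP+NICD, both labelled as imaginal ring, a cuff of diploid progenitors between the salivary duct and the large secretory cells of the gland. NICD is the intracellular domain of Notch, which switches on Notch target genes without a ligand. All 6 samples carried the Actts driver and GFP, with expression timed by Gal80ts, a temperature-sensitive repressor, and in fly genetics Act drivers are commonly made from an actin promoter active in most cells rather than in the imaginal ring alone. Controls were labelled as larvae of the third instar, and tumors as kept for 7 days at 18 °C and then 7 days at 29 °C. No temperatures or days were labelled for controls, so NICD, age and heat exposure cannot be told apart here. The labels do not tell whether samples of a group were separate animals or pools, so the deposited p-values reflect the spread among these samples, which may be technical. The files hold no value per sample, so the depth is unknown and no SD stands beside a value.

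Turandot proteins are secreted into the hemolymph, mainly by the fat body, the fly's counterpart of liver and adipose tissue, after infection, heat, mechanical stress or other damage. TotA is the best studied, and its induction in the fat body needs the JAK-STAT pathway: the cytokine Upd3, released by hemocytes (blood cells) and damaged tissues, binds the receptor Domeless, and the kinase Hopscotch then activates the transcription factor Stat92E. The Imd pathway with its NF-kappaB factor Relish, and the stress kinase Mekk1, also contribute to TotA expression. Turandot proteins have been reported to protect the fly's own tissues from its antimicrobial peptides.

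TotA was abundant and lower in tumor. In the authors' deposited table TotA (FBgn0028396) had a mean level of 1445 CPM, read counts scaled by library, with factors that are not known, and averaged over all libraries, which made it the 59th most abundant of the 6156 listed genes. By the authors' deposited values TotA was 8.28-fold lower in tumor, a log2 fold change of -3.05 with p = 2.07e-05 and an adjusted p = 0.000145. Taking the mean level as the average of both groups, this corresponds to an estimated 2578 CPM in control against 312 CPM in tumor. Over all listed genes such estimates total 1224980 CPM in control but 351471 CPM in tumor. The size of this fall, as of every fold given here, depends on how the groups were scaled to each other. Ordered by these estimates within each group, TotA was 53rd among the listed genes in control and 171st in tumor, so it was still among the more abundant listed transcripts after its fall. Such an order within a group does not depend on how the groups were scaled to each other.

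TotC, whose gene lies next to TotA, was lower too, at a far smaller level. In the authors' deposited table TotC (FBgn0044812) had a mean of 8.29 CPM and was 5.38-fold lower in tumor, a log2 fold change of -2.43 with p = 0.00151 and an adjusted p = 0.00356. Its estimated level was 13.98 CPM in control against 2.60 CPM in tumor. Per kilobase of annotated transcript, the mean level was 2495 CPM per kb for TotA and 15.6 CPM per kb for TotC, a ratio of 160. TotA and TotC are thus listed with the same direction and with falls that lie 0.62 apart on the log2 scale. Whether these falls differ was not tested, since the table gives no standard error.

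Being called is common in this comparison. Of the 5 members 2 were called, or 40.0%, against 65.6% of all tested genes at an adjusted p below 0.05. In the lower direction 2 of 5 were called, against 31.6% of tested genes, and in the higher direction 0 of 5, against 34.0%. The members were chosen with this contrast in view, so nothing is read from these shares. Under a stricter heading of 2 the authors' deposited calls number 1705 lower and 1845 higher, but the gene rows do not show which genes those are. The 2 listed members had a median log2 fold change of -2.74, and all listed genes one of 0.57. Set relative to that median, TotA stood at -3.62 and TotC at -3.00. Set relative to the estimated totals of all listed genes, which are larger in control, both falls would instead be smaller.

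**Figure D1:**
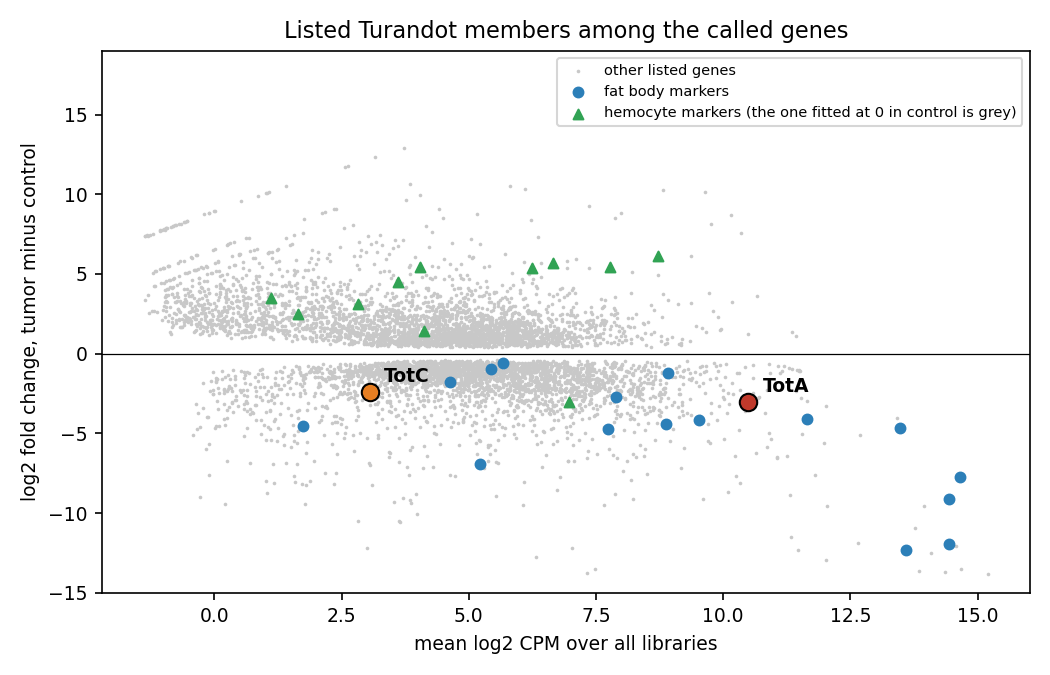
Each point is a gene of the authors' deposited table, with its mean log2 CPM over all libraries on the x axis and its log2 fold change, tumor minus control, on the y axis. TotA at -3.05 and TotC at -2.43 both lie below 0, far apart in level, among fat body markers (blue) that are all lower, while hemocyte markers (green) are higher but for one.

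The fall of TotA lay within the spread of listed genes of its abundance and of its transcript length. Of the 2969 genes listed as lower, 82.6% had a smaller fall than TotA and 73.9% a smaller fall than TotC. Yet of 38 other listed genes within 0.5 log2 CPM of TotA, 33 were lower, their median log2 fold change was -2.51, and 14 fell further than TotA. Turandot transcripts are short, with a median annotated length of 579 bases for TotA and 530 bases for TotC. Listed genes with transcripts of about these lengths were mostly lower in tumor. Of 378 listed genes within 20% of the length of TotA, 79.1% were lower (median -1.70), and 82 fell further than TotA. Of 323 within 20% of the length of TotC, 78.9% were lower (median -1.89), and 115 fell further than TotC. Among all listed genes 48.2% were lower. The length windows of TotA and TotC overlap, so their shares are not independent, and genes that were not called are in neither. At the level of TotC no such lean was present, since 46.7% of 651 listed genes within 0.5 log2 CPM of it were lower, and 61 of them fell further. These windows were chosen after the data were examined, and what part level or transcript length has in the fall of either gene was not tested.

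**Figure D2:**
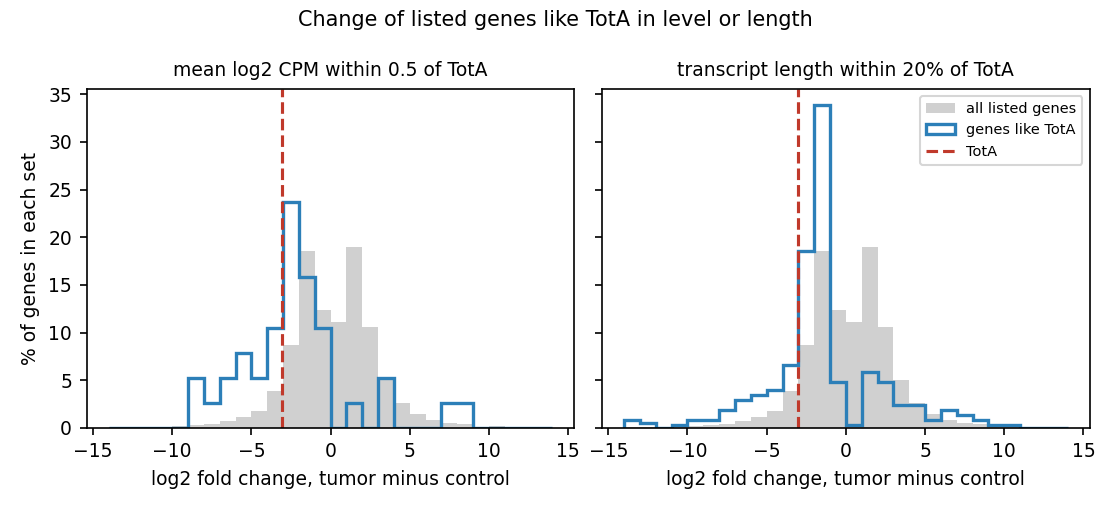
The share of genes in each set (y axis, %) is plotted by log2 fold change, tumor minus control (x axis), for all listed genes (grey) and for listed genes like TotA (blue line) in mean level (left, 38 genes) or in transcript length (right, 378 genes). Both blue outlines lie mostly below 0, with medians of -2.51 and -1.70, and the dashed line of TotA at -3.05 falls inside them.

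TotA, TotC, TotB and TotZ sit side by side on chromosome arm 3R in that order in RefSeq, and their listed values do not share a direction. TotX follows on the same arm after several other genes. TotA and TotC, the first pair, are listed as lower, and TotB, the next gene, has no row. TotZ, a family gene outside the 5 members, is listed in the authors' deposited table as higher in tumor (p = 0.0137, adjusted p = 0.0233), with control fitted at 0, so no fold is given. Its mean of 0.40 CPM in the authors' deposited table makes TotZ the 6153rd of 6156 listed genes by level, far below TotC. TotA, TotC, TotB and TotZ lie on the same strand, each with 2 exons, and as related neighbouring genes they can share reads. How such reads were assigned is not given, which makes the low values of TotC and TotZ uncertain beside abundant TotA.

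TotX lies on the opposite strand within the span of Grik, a glutamate receptor gene, and neither has a row. Of the 14 genes from KaiR1D, just before TotA, to CG31191, just after TotX, 5 are listed, 4 lower and 1 higher. Besides the Turandot genes these are CR44947, a noncoding RNA gene for which the authors' deposited table gives a log2 fold change of -10.55, and Ktl, for which it gives -2.39, both named once their values had been seen. The listed share of the 14 is below the 65.6% of all tested genes. Some tRNA and noncoding RNA genes among the 14 may not have been tested, so nothing is read from these counts. TotM is the one member on arm 2L, and no other Turandot gene adjoins it. Its neighbour fusl fell 32.1-fold by the authors' deposited table (adjusted p = 7.56e-05), and CG14022 on its other side has no row. TotE and TotF, the remaining family genes, lie together on 2L within the span of sick on the opposite strand, and neither has a row. Of the 8 Turandot genes in the annotation 3 are therefore listed.

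**Figure D3:**
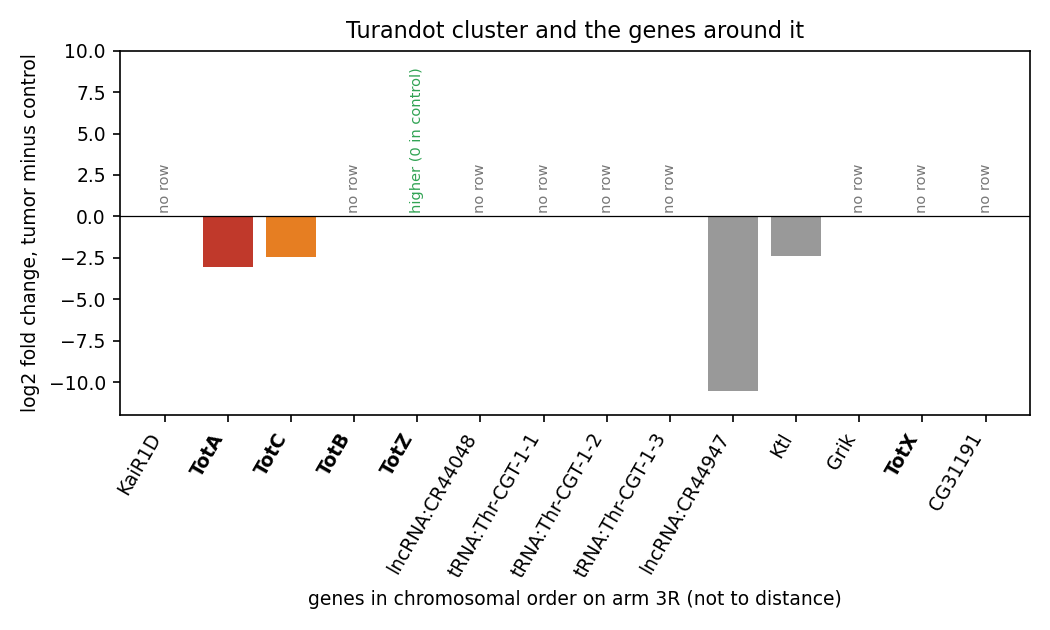
Genes of chromosome arm 3R from KaiR1D to CG31191 are drawn in their order, not to distance, with the log2 fold change (tumor minus control) as a bar from 0. TotA (-3.05) and TotC (-2.43) are lower, TotZ is listed as higher with control fitted at 0 and so has no bar, and genes marked as having no row, TotB and TotX among them, have no value in the table.

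Genes of the pathway that induces TotA were higher in tumor while TotA and TotC were lower. Of 6 genes of the JAK-STAT ligands, receptor and core, 4 were listed, each of them higher. Of all tested genes 65.6% were called, 34.0% as higher and 31.6% as lower. Among the 6156 listed genes 3187 were higher. The 4 had a median log2 fold change of 5.16 against 0.57 for all listed genes. With the lower quartile of mean log2 CPM left out 1 of these 4, dome, remains. The authors' deposited table puts the cytokine genes upd2, upd3 and upd1 at 129-fold, 70.2-fold and 18.1-fold higher (adjusted p = 0.000484, 8.78e-05 and 0.00433). All 3 cytokine transcripts were scarce, at means of 7.19, 7.26 and 6.13 CPM in the authors' deposited table. In control they were estimated at only 0.11, 0.20 and 0.64 CPM, so the size of their folds is uncertain. For the receptor gene dome the authors' deposited table gives a 6.04-fold rise (adjusted p = 0.000308). The kinase gene hop and Stat92E have no row.

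Most listed outputs and regulators of JAK-STAT signaling were higher. Of 14 such genes 10 were listed, against 65.6% of all tested genes. These were 9 higher and 1 lower, against 34.0% and 31.6% of tested genes. Of all listed genes 48.2% were lower. The 10 had a median of 2.04, and the other 4 genes have no row. Socs36E, a feedback inhibitor and a widely used readout of the pathway, rose 12.2-fold by the authors' deposited table (adjusted p = 6.3e-05), from an estimated 15.3 CPM in control to 187 CPM in tumor. The authors' deposited table also has rises of 10.5-fold for chinmo and 13.2-fold for zfh2, both known as targets, and of 6.49-fold for the repressor gene ken. One of the 9 higher genes changes sign once values are taken relative to the median of all listed genes.

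Genes of the other routes to TotA were listed in both directions. Of 18 Imd pathway genes 12 were listed, a share near that of all tested genes, 7 higher and 5 lower, with a median of 0.84. With a 2-fold minimum 6 were higher and 2 lower. The authors' deposited table gives rises of 3.46-fold for the receptor gene PGRP-LC, 7.79-fold for PGRP-LF and 2.22-fold for pirk. It also gives a rise of 2.68-fold for Rel, which encodes Relish (adjusted p = 0.000148 for Rel). PGRP-LB, whose product degrades peptidoglycan, fell 1.98-fold by the authors' deposited table. The other lower genes there were Tab2 (2.34-fold), Fadd (2.14-fold), imd (1.81-fold) and Dredd (1.48-fold). These changes give no single direction for the pathway. Of 8 Mekk1 and p38 stress kinase genes 4 were listed, a share below the 65.6% of all tested genes. These were 2 in each direction, against 34.0% of tested genes called as higher and 31.6% as lower. They had a median of 0.18 and a mean of -0.093, and a 2-fold minimum leaves 1 in each direction. Of these, the authors' deposited table has Mekk1 3.53-fold higher (adjusted p = 0.000707) and the MAP kinase gene p38c 5.87-fold lower.

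Antimicrobial peptide genes, the effectors against which Turandot proteins have been reported to shield tissue, were mostly higher. Of 16 in the list 8 were listed, a share below the 65.6% of all tested genes. These were 7 higher and 1 lower, against 34.0% and 31.6% of tested genes, with a median of 3.86. Of all listed genes 48.2% were lower. The authors' deposited table has Def 1443-fold, Mtk 622-fold and DptA 33.5-fold higher, whereas AttC was 17.0-fold lower. Def and Mtk were estimated at only 0.078 and 0.53 CPM in control, so the size of their folds is uncertain. By the estimates the 8 listed genes add up to 50.4 CPM in control against 786 CPM in tumor, so TotA alone exceeded the whole sum in control and was below it in tumor.

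Heat shock and damage-response genes, which share inducers with TotA, were higher as well. Of 16 heat shock genes 11 were listed, a share near the 65.6% of all tested genes. Each of the 11 was higher (median 4.67), against 34.0% of tested genes and 3187 of the 6156 listed genes. Once the lower quartile of mean log2 CPM is left out, 7 of the 11 remain. By the authors' deposited table the small heat shock genes Hsp26 and Hsp67Bc rose 30.8-fold and 25.4-fold. Near-identical Hsp70 copies can share reads, so no single copy is given. Of 14 JNK and tissue damage genes 9 were listed, again a share near that of all tested genes. These were 8 higher and 1 lower, with a median of 2.12. By the authors' deposited table the pro-apoptotic gene rpr rose 17.4-fold and the matrix metalloproteinase gene Mmp1 25.4-fold. In the oxidative stress and detoxification list of 11 genes the lean was the other way. Of its 10 listed genes 7 were lower and 3 higher, against 31.6% and 34.0% of all tested genes, with a median of -1.55. The authors' deposited table has the catalase gene Cat 4.60-fold lower and GstD2, a glutathione transferase gene, 13.99-fold higher.

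**Figure D4:**
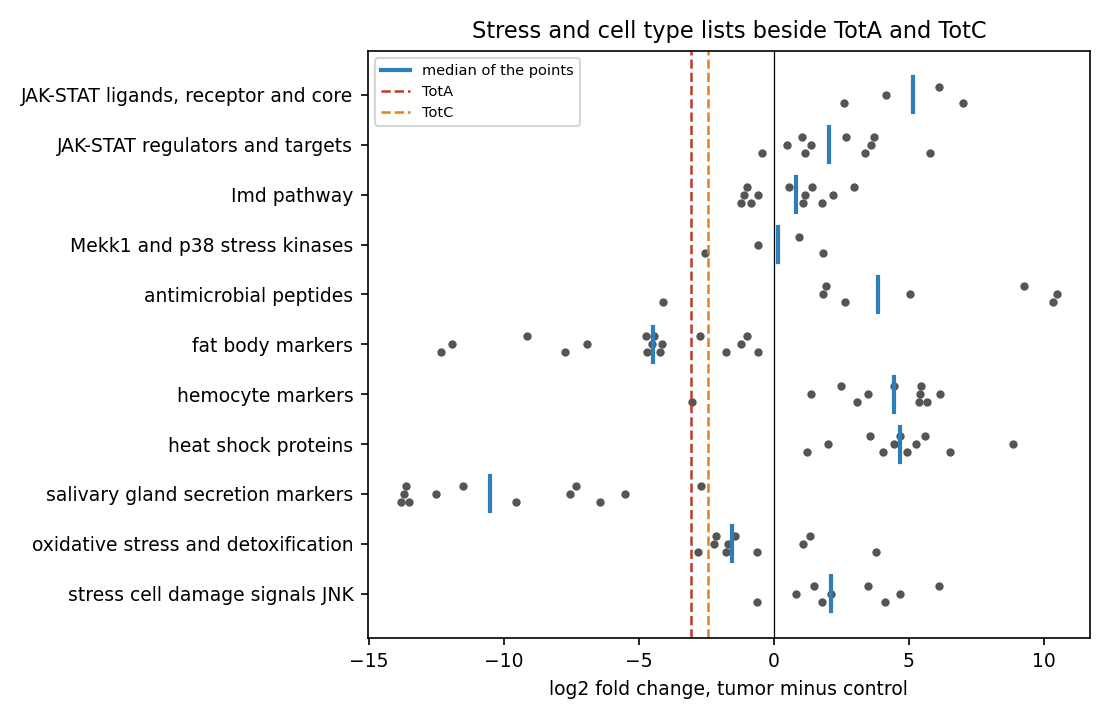
Each grey point is a listed gene of the list named on the y axis, placed by its log2 fold change, tumor minus control (x axis), with the list's median as a blue bar and genes fitted at 0 in a group left out. The dashed lines of TotA (-3.05) and TotC (-2.43) run through the fat body markers and left of every point of the JAK-STAT, heat shock and JNK lists.

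Transcripts of the fat body, the main known source of Turandot proteins, fell along with TotA and TotC. All 16 listed fat body markers of 21 were lower, against 31.6% of all tested genes and 48.2% of all listed genes. Their log2 fold changes had a median of -4.48 and a range of -12.32 to -0.59. Of these 16, 11 fell further than TotA and 12 further than TotC. The authors' deposited table gives falls of 3869-fold for the larval serum protein gene Lsp1alpha, 5125-fold for Fbp2 and 26.4-fold for ppl, a gene expressed in the fat body. By the estimates the listed markers add up to 196341 CPM in control against 2108 CPM in tumor, and no listed marker was fitted at 0 in either group. In bulk tissue, fewer cells of a type and less RNA per cell cannot be told apart, and what part fat body content has in the fall of TotA was not tested.

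How TotA compared with those markers turned on the storage protein genes. TotA amounted to 1.31% of the summed fat body markers in control and 14.8% in tumor by the estimates, 11.3 times as high a share in tumor, which does not depend on the scaling between groups. The 5 most abundant markers, Lsp1alpha, Lsp1beta, Lsp1gamma, Fbp1 and Fbp2, made up 94.8% of that sum in control. Against the other 11 markers TotA amounted to 25.5% in control and 33.98% in tumor, 1.33 times as high a share, a split chosen after the data were examined. On the log2 scale the fall of TotA was 1.43 smaller than the median fall of the list, and that of TotC 2.05 smaller. The lipid and sugar handling genes FASN1, bmm, Lsd-2, Glut1 and Lpin, 5 of the 16 markers, fell less than TotA. Such ratios show unequal change and do not show that any one transcript was steady. Whether the difference exceeds the spread between samples was not tested.

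Secretory salivary gland transcripts, from the tissue that adjoins the imaginal ring, fell furthest. All 12 listed of 13 salivary gland secretion markers were lower, with a median of -10.51. Lower were 31.6% of all tested genes and 48.2% of all listed genes. By the estimates these markers summed to 278739 CPM in control but 270.1 CPM in tumor. The controls labelled as imaginal ring thus held large amounts of glue and fat body transcripts. Hemocyte markers moved the other way. Of 16, 12 were listed, 11 higher and 1 lower, against 34.0% and 31.6% of all tested genes. Of the 6156 listed genes 3187 were higher. Their median was 4.93 (4.48 without NimC4, which was fitted at 0 in control). By the authors' deposited table the phagocytic receptor gene eater rose 42.7-fold, and PPO2 and PPO1, which encode prophenoloxidases, rose 71.3-fold and 43.8-fold. The hemocyte sum was estimated at 266 CPM in control against 1752 CPM in tumor, beside the higher upd3. Most of the control sum, 223 CPM, was NimC2, the 1 listed marker that fell. What part hemocyte content has in the upd3 value was not tested.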

How the data were processed

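RNA sequencing of 3 control and 3 tumor samples was analysed from a comparison table and a sheet with numbers of calls, both made by the authors. The submitters' processing notes name featureCounts and DESeq2, whereas the column names match edgeR's minimum-fold test, so which tool made the values is not settled. Aligner, build, annotation and strand setting: not given in the sources used here. Per the file headers, the authors gave a log2 fold change, an unshrunk one, a mean log2 CPM, and per gene a p-value and its adjusted form. The unshrunk column was handled as a score, because in 43 deposited rows it exceeds 100 in size, read here as a group fitted at 0. The sheet's other content is free text, in which the authors' deposited calls under the heading 1.2 total 2969 lower, 3228 not called and 3187 higher. The lower and higher numbers equal those of the listed genes. If 1.2 is the minimum of such a test, the deposited p-values weigh change beyond that minimum rather than any change. Whether that is so is not settled.

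No count per sample was at hand, so no test was run, and the design's provision for that case was followed: the authors' adjusted p below 0.05 was counted, with no set test. Group CPM was computed from mean CPM and fold, taking the mean as the average of both groups. Simulated data checked this arithmetic alone, because their mean was the plain average of both groups. Whether the deposited mean and fold combine in this way was not tested. Over the listed genes these estimates total 1224980 CPM for control but 351471 CPM for tumor, so estimated CPM is no share of reads. Whether factors beyond library totals entered the values or the formula does not match them cannot be told apart here. Members and lists were chosen with earlier results of these data known. The 12 lists give 156 places for 154 genes after 3 second names and 1 symbol without a match were left out. Lengths come from the BDGP6 annotation (version 54, Ensembl release 115) and gene order from RefSeq, Release 6. The authors' build is not known, so no coordinates are printed, and no sequence was used here. Named were all Turandot genes, direct neighbours, up to 5 genes per list with the smallest adjusted p, and upd3, dome, hop, Stat92E, Socs36E, Rel and Mekk1. The remaining lower genes of the Imd list were named as well, once their values had been seen. Likeness to a member across samples could not be computed. Python 3.11.15, pandas 2.3.3, numpy 2.4.6 and matplotlib 3.10.9 were used.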

Additional observations from a re-analysis of the deposited data

How the results depend on the processing

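TotA and TotC were both called and lower at an adjusted p below 0.01 and with a 2-fold minimum. With the lower quartile of mean log2 CPM left out, 1 member remained lower in place of 2, because TotC at a mean log2 CPM of 3.05 lies just under the quartile of 3.06. The unshrunk log2 fold changes were -3.05 and -2.43. Taking the midpoint on the log2 scale as the mean level put TotA at 4156 CPM in control and 502 CPM in tumor, 1.61 times the estimates above. The median of the Mekk1 and p38 list changed sign as a mean (-0.093). The JAK-STAT ligand and receptor list keeps 1 of 4 higher genes, dome, with the quartile left out, the heat shock list 7 of 11, and TotZ is lost there and at an adjusted p below 0.01. Over all lists the counts of 63 higher and 46 lower genes stayed within 1.5 times under these settings. No paired analysis was possible because the table gives no per-sample values, and leaving out a replicate was not run for the same reason. Depth is unknown, so how far it limits TotC and TotZ cannot be stated.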

Other observations

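Other peptides that the fly secretes into its hemolymph after infection were listed in both directions. Genes whose full name in the table begins with "Immune induced molecule" were picked after the data were examined, and 6 are listed, 5 higher and 1 lower. They were sought among listed genes alone, so nothing is read from their being listed, and such genes without a row were not counted. Of all tested genes 34.0% were called as higher and 31.6% as lower, and of all listed genes 48.2% were lower. By the authors' deposited table IM23 rose 121-fold, IM4 19.2-fold, IM1 15.3-fold, IM2 10.3-fold and IM3 4.15-fold. All 5 were scarce, with means between 1.09 CPM for IM4 and 7.50 CPM for IM3 in the authors' deposited table. IM23, IM4 and IM1 were estimated at only 0.020, 0.11 and 0.18 CPM in control, so the size of their folds is uncertain. IM33, the most abundant at a mean of 191 CPM, fell 4.38-fold by the authors' deposited table (adjusted p = 0.00035). The estimates for all 6 add up to 316 CPM in control against 99.3 CPM in tumor, most of it IM33. IM33 shared the direction of TotA, and the 5 scarce genes that of the listed antimicrobial peptide genes other than AttC. With 1 abundant gene in a set picked in this way, a link between level and direction was not tested. NimC2 was the one listed hemocyte marker that fell, 8.16-fold by the authors' deposited table, and was named once its value had been seen.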
